A study of Mus musculus with 8 samples.

Results

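Aldh3a2, Plin3 and Pemt are 3 liver genes of lipid handling, and each was read by 1 probe in mouse liver on 8 single-colour Applied Biosystems arrays. They are 3 of the 311 genes for which a probe could be named, on arrays of 33012 gene probes. The probes were found by the RefSeq accession that the arrays list for them: NM_007437.1 for Aldh3a2, NM_025836.1 for Plin3 and NM_008819.2 for Pemt. The genes were chosen by their signal differences on these same arrays, as known from earlier results. Their differences from wild type and from untreated knockout liver are therefore given as descriptions with no p-value of their own. Where the text counts how many of them passed the threshold of the fit over all probes, the count stands beside the share of all probes that did and is not read as a test.

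All mice were male, of the FVB/N strain and 3 months old, and whole liver RNA was measured. The 4 groups of 2 arrays were untreated wild type (WT), untreated mice lacking Abcb4 (KO), and Abcb4 KO mice treated with norUDCA for 3 days or for 4 weeks. norUDCA is a bile acid with a modified side chain. The comparisons ask how liver gene signal differed with loss of Abcb4, and how it differed after short and long treatment. The labels describe duplicates but do not say that they were separate animals, so p-values and errors measure only the spread between these samples. Abcb4 itself had no named probe, so the genotype was not checked on the targeted gene.

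The 3 proteins act at different points of lipid traffic in the hepatocyte. Aldh3a2 is the fatty aldehyde dehydrogenase of the endoplasmic reticulum, which oxidises long-chain aldehydes from fatty alcohol, ether lipid and sphingolipid breakdown to fatty acids. Plin3, also known as TIP47, is a perilipin that moves between the cytosol and the coat of small, newly formed lipid droplets. Pemt methylates phosphatidylethanolamine to phosphatidylcholine, mainly in liver, with S-adenosylmethionine as the methyl donor. Abcb4 is the canalicular transporter that moves phosphatidylcholine into bile, where it shields the bile ducts from bile acids. Mice without it secrete bile poor in phospholipid and develop bile duct injury.

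The promoter windows of the 3 genes are shown as a description of their sequence. Whether their motifs or base content bear on the signals of the genes was not tested. Each window is the 250 bases before a RefSeq transcription start on GRCm38.p6, printed 5′ to 3′ on the gene's own strand, which is the minus strand for all of them. All 3 genes had an entry, and Pemt had 2 start sites. Capitals mark matches, on either strand, to the CCAAT box, to the GC box written GGGCGG or to the E-box written CACGTG.
Aldh3a2, chr11:61267187-61267436: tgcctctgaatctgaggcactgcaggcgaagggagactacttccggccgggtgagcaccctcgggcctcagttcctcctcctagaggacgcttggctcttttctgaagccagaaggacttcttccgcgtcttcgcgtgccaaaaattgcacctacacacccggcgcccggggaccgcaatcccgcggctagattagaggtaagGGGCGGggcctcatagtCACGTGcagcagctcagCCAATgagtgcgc
Plin3, chr17:56290512-56290761: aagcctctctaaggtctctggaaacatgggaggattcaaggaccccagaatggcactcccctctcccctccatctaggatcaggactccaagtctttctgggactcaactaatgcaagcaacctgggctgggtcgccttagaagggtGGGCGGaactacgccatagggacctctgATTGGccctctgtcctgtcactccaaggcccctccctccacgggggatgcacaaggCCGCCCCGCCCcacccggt
Pemt, start site 1, chr11:60040189-60040438: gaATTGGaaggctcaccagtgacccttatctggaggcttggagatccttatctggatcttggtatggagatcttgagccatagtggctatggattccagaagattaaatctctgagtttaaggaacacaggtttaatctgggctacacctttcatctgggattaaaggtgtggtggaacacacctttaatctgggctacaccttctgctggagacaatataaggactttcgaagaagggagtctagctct
Pemt, start site 2, chr11:60037006-60037255: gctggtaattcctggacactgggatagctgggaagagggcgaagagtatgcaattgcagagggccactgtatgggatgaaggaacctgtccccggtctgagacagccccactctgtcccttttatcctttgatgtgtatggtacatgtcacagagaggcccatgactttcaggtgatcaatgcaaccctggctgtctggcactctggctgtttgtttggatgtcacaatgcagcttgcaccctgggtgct

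The Aldh3a2 window held CCAAT 13 to 9 bases before the start, CACGTG 30 to 25 bases before it and GGGCGG 47 to 42 bases before it. The Plin3 window held CCAAT on the opposite strand 75 to 71 bases before the start and 3 matches to GGGCGG. Of those GGGCGG matches, 1 lay on the gene's strand 103 to 98 bases before the start. The others lay on the opposite strand 19 to 14 and 14 to 9 bases before it, sharing 1 base. The window of Pemt start site 1 held only CCAAT, on the opposite strand 248 to 244 bases before the start, and that of start site 2 held none of the motifs. Among 32851 mouse promoter windows of the same length, CCAAT on either strand occurred in 33.8%, GGGCGG in 32.7% and CACGTG in 6.0%. The nuclear receptor element AGGTCA, found in 14.0% of all windows, and the TATA box TATAAA, found in 12.4%, were searched in the same way and matched in none of the 4 windows. The G and C content was 61.2% for Aldh3a2, 60.0% for Plin3, 44.8% and 52.8% for the Pemt start sites, against a median of 52.4% over all windows. A match to these letters describes the window and is not a measured binding site.

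The signal used is the spot brightness with each array brought to the same distribution over gene probes (quantile normalization) and put on a log2 scale, so that a difference of 1 is a doubling. A probe counts as detected on an array where its signal over noise is 3 or more, and 16728 probes detected on at least 2 arrays were tested. All 3 genes passed that filter on all 8 arrays, with signal over noise of 26.9 to 133.3 for Aldh3a2, 17.6 to 80.6 for Plin3 and 67.3 to 118.8 for Pemt. The detected share of gene probes was 33.3% to 47.9% per array, lowest on WT replicate 1. In the deposited signal the 75th percentile of gene probes was 396.8 and 643.8 for WT, and 945.3 to 1511.9 for the 6 KO arrays. The median of 129 positive control spots was also lower on WT arrays, at 1691.1 to 2061.8 against 6104.3 to 7913.4. The reverse transcription control spots overlapped, with WT at 16155.2 to 24001.6 and KO at 18853.3 to 23073.4. The part of this brightness difference in the members' differences from WT cannot be told apart from genotype, since it runs with the WT group, and its effect on each value is given with the scalings described after the gene values.

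**Figure D1:**
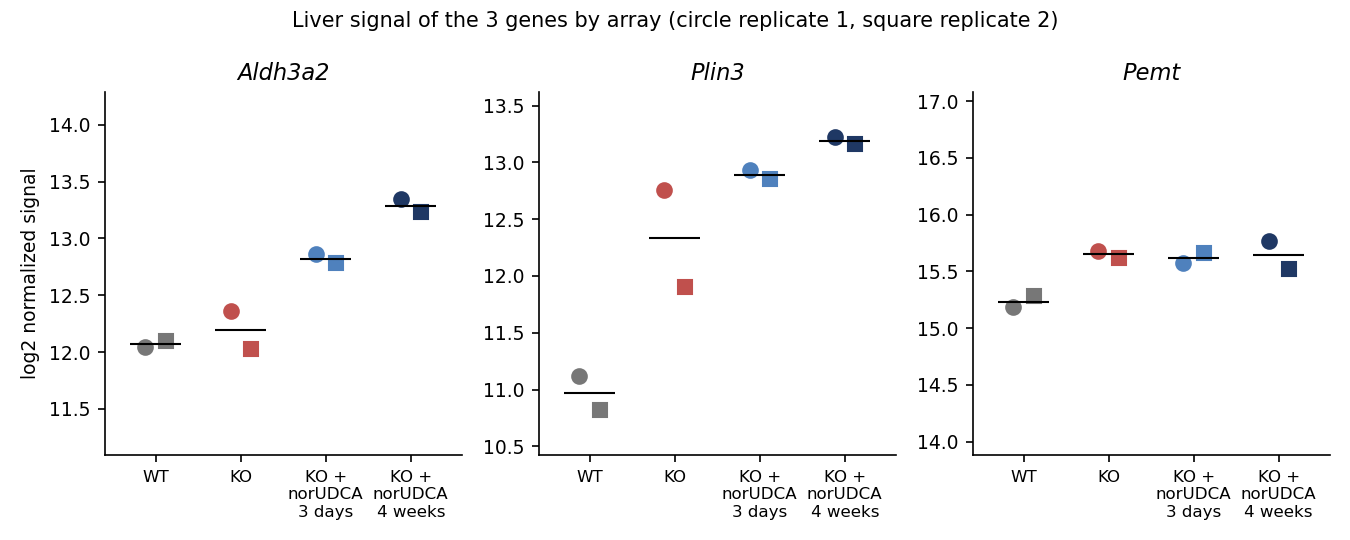
Normalized log2 signal of Aldh3a2, Plin3 and Pemt on each array, with replicate 1 as a circle, replicate 2 as a square and the group mean as a line, for WT, KO and KO with norUDCA for 3 days or 4 weeks. Aldh3a2 lies near 12 in WT and KO and reaches 13.29 at 4 weeks. Plin3 goes from a mean of 10.97 in WT to 13.19 at 4 weeks with a wide gap between the KO arrays, and Pemt is lowest in WT at 15.23.

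Aldh3a2, the fatty aldehyde dehydrogenase, lay higher after norUDCA treatment than in untreated livers of either genotype, and highest after 4 weeks. The WT arrays read 12.04 and 12.10 in log2 signal and the KO arrays 12.36 and 12.03. The 3-day arrays read 12.86 and 12.78, and the 4-week arrays 13.35 and 13.23. The WT and KO arrays overlapped, whereas both 3-day arrays lay above all untreated arrays and both 4-week arrays above the 3-day arrays. As deposited, before normalization, the signal was 1698 and 3089 in WT, 7195 and 4239 in KO, 8607 and 6907 after 3 days and 16279 and 14010 after 4 weeks. On that scale the KO arrays stand above the WT arrays, as do gene probes in general.

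The group means of Aldh3a2 were 12.07 ± 0.04 for WT and 12.20 ± 0.23 for KO, then 12.82 ± 0.05 for 3 days and 13.29 ± 0.09 for 4 weeks of norUDCA (log2, SD, n = 2 each). KO minus WT was 0.13 ± 0.20 (log2 difference ± moderated SE from limma), a 1.09-fold difference that is smaller than its error. After 3 days of norUDCA the signal lay 0.62 ± 0.20 above KO (1.54-fold), and after 4 weeks 1.10 ± 0.20 above it (2.14-fold). Set against WT, the differences were 0.75 ± 0.20 at 3 days (1.69-fold) and 1.23 ± 0.20 at 4 weeks (2.34-fold). In these whole-liver samples, more RNA per cell and more cells of a type that makes it cannot be told apart, for this gene and the others.

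To place these values, 95.1% of all tested probes had a lower 4 weeks minus KO difference than Aldh3a2 and 83.4% a lower 3 days minus KO difference. For KO minus WT the share was 53.2%, close to the middle of all probes.

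Plin3, the lipid droplet coat protein, lay higher in every KO group than in WT, with the order WT, KO, 3 days, 4 weeks. In log2 signal, WT arrays read 11.12 and 10.82 and KO arrays 12.76 and 11.90. The 3-day arrays read 12.93 and 12.85, and the 4-week arrays 13.22 and 13.16. No 2 groups overlapped, but the upper KO array lay only 0.10 below the lower 3-day array. The deposited signal was 899 and 1239 in WT, 9389 and 3855 in KO, 8999 and 7227 after 3 days and 14746 and 13434 after 4 weeks.

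The Plin3 means were 10.97 ± 0.21 for WT and 12.33 ± 0.61 for KO, then 12.89 ± 0.06 for 3 days and 13.19 ± 0.04 for 4 weeks of norUDCA (log2, SD, n = 2 each). The KO arrays were 0.86 apart, the widest gap between replicates of any of the 3 genes. KO minus WT was 1.35 ± 0.31 (2.55-fold), and it was 0.92 without KO replicate 1 and 1.78 without KO replicate 2. The scanner put the quality flag 64, whose meaning is not given in the sources used here, on the Plin3 spot of KO replicate 1 and of 3-day replicate 1.

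Against KO, Plin3 lay 0.57 ± 0.31 higher after 3 days (1.48-fold) and 0.87 ± 0.31 higher after 4 weeks (1.82-fold). Both values turn on the KO arrays: without KO replicate 2 they were 0.13 and 0.44, and without KO replicate 1 they were 1.00 and 1.30. Against WT, the differences were 1.92 ± 0.31 at 3 days (3.78-fold) and 2.22 ± 0.31 at 4 weeks (4.66-fold). Of all tested probes, 97.6% had a lower 4 weeks minus WT difference, and 92.1% a lower KO minus WT difference.

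Pemt, the phosphatidylcholine-forming methyltransferase, was lowest on the WT arrays and at a like level in the 3 KO groups. Log2 signals were 15.19 and 15.28 for WT and 15.68 and 15.62 for untreated KO. They were 15.57 and 15.66 in the 3-day group and 15.77 and 15.52 in the 4-week group. Each KO group lay above both WT arrays without overlap, and the KO groups overlapped with each other. The deposited signal was 15370 and 29319 in WT, 66473 and 53004 in KO, 55862 and 51996 after 3 days and 84591 and 66656 after 4 weeks. The spot of 4-week replicate 1, the highest array, carried the flag 64.

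The Pemt means were 15.23 ± 0.06 for WT and 15.65 ± 0.04 for KO, then 15.62 ± 0.07 for 3 days and 15.65 ± 0.18 for 4 weeks of norUDCA (log2, SD, n = 2 each). The difference from WT was 0.42 ± 0.19 in KO (1.33-fold), 0.38 ± 0.19 at 3 days (1.30-fold) and 0.41 ± 0.19 at 4 weeks (1.33-fold). Between 65.5% and 69.8% of all tested probes had a lower difference in these contrasts. The 3 days minus KO difference was -0.03 with a 95% interval of -0.50 to 0.43. The 4 weeks minus KO difference was 0.00 with an interval of -0.46 to 0.46. Both intervals are wider than the KO minus WT difference of 0.42, so a like mean does not show that Pemt was the same in treated and untreated KO liver.

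**Figure D2:**
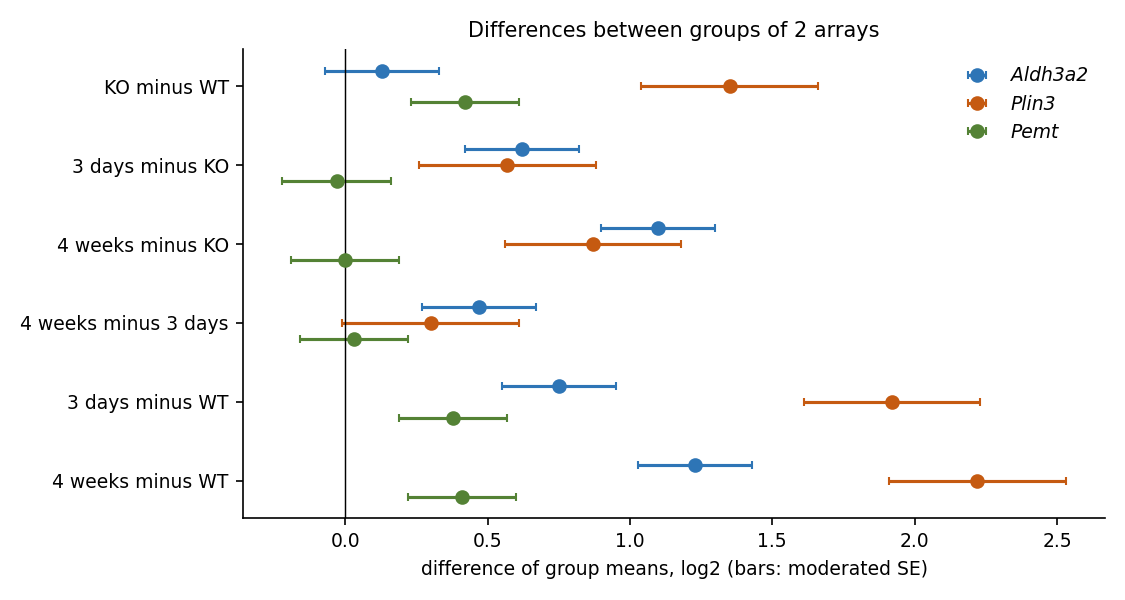
Differences between group means on the log2 scale for each gene in the 6 contrasts, with bars of 1 moderated SE and the vertical line at no difference. Plin3 stands farthest from 0 in the contrasts with WT (1.35, 1.92 and 2.22), Aldh3a2 in 4 weeks minus KO (1.10), and Pemt lies at 0 in the contrasts among KO groups.

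Earlier results of these arrays were known when the genes were picked, so the step from 3 days to 4 weeks of norUDCA is a description too. Its adjusted p-values are printed to place the values and are not read as a test of the genes. Aldh3a2 differed by 0.47 ± 0.20 (1.39-fold, 95% interval -0.01 to 0.96), with both 4-week arrays above both 3-day arrays. Its adjusted p was 0.57 (limma, Benjamini-Hochberg over 16728 probes), which does not pass the threshold of 0.05. Plin3 differed by 0.30 ± 0.31 (interval -0.47 to 1.07, adjusted p = 0.86 by limma), again without overlap of the arrays. For Pemt the difference was 0.03 ± 0.19 (interval -0.43 to 0.49, adjusted p = 0.98 by limma), and the arrays overlapped. In this contrast limma called 0 of 16728 probes (0%), while 1499 probes had a p below 0.05 before adjustment, and the smallest p after it was 0.254.

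Counted over the 3 genes, 0 passed the limma threshold in KO minus WT, where 1.13% of all tested probes did, and 0 in 3 days minus KO, where 0.233% did. In 4 weeks minus KO 0 passed, against 0.0478% of all probes. At an unadjusted p under 0.05 these counts were 1, 1 and 2 of 3, against 19.8%, 16.1% and 8.75% of all probes. In 3 days minus WT Plin3 alone passed (5.78% of all probes did), and in 4 weeks minus WT Plin3 and Aldh3a2 did (2.27% of all probes). Nothing is read from these counts, since the genes were picked with such differences known. Both arrays lay above both others for 2 of the 3 genes in KO minus WT, 3 days minus KO, 4 weeks minus KO and 4 weeks minus 3 days. All tested probes did so in 28.5%, 22.2%, 21.0% and 25.3% of cases. In the remaining contrasts with WT all 3 genes did so, against 30.7% of probes at 3 days and 30.9% at 4 weeks.

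Which side of the threshold the values against WT fell on also moved with single arrays, and this too describes the chosen genes without testing them. The Plin3 call at 3 days was kept without KO replicate 1 or KO replicate 2 and lost without any one of the other 6 arrays. At 4 weeks the calls of Plin3 and Aldh3a2 were kept without WT replicate 2, KO replicate 1 or KO replicate 2, and lost without any one of the other 5. The differences themselves moved little: 1.77 to 2.07 for Plin3 at 3 days, 2.07 to 2.37 for Plin3 at 4 weeks and 1.17 to 1.29 for Aldh3a2 at 4 weeks.

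**Figure D3:**
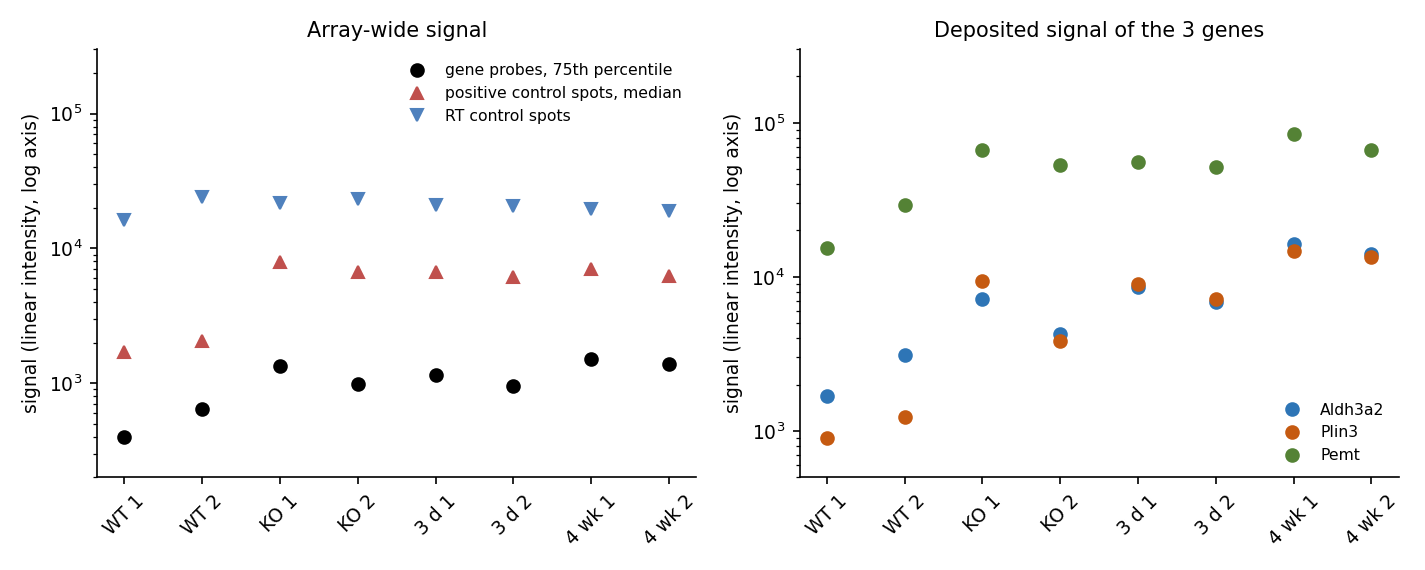
Deposited signal on a log axis by array, in 1 panel for the 75th percentile of gene probes, the positive control spots and the reverse transcription (RT) control spots, and in 1 panel for the 3 genes. The WT arrays are dimmest in gene probes and in positive control spots (at most 2061.8 against at least 6104.3) but not in RT control spots, and all 3 genes are dimmest there too.

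How the arrays are scaled to each other decides the size of the differences from WT, and for Aldh3a2 and Pemt their direction. The median difference of all tested probes in KO minus WT was 0.09 after quantile normalization and 0.48 with arrays scaled to the same median. It was -0.85 with arrays scaled to the positive control spots, and 0.92 with arrays scaled to the RT control spots. Under those 4 scalings KO minus WT for Plin3 stayed above 0, with a range of 0.55 to 2.33 over all 23 alternatives. For Aldh3a2 the range was -0.69 to 1.08 and for Pemt -0.47 to 1.30, with the lowest values under the positive control scaling. At 3 days against WT, Aldh3a2 ranged from -0.02 to 1.67 and Pemt from -0.42 to 1.27. At 4 weeks against WT, Aldh3a2 ranged from 0.89 to 2.76, Plin3 from 1.91 to 3.77 and Pemt from 0.00 to 1.86.

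Set relative to the median of all tested probes under the same setting, the differences were closer together. Scalings that shift each array by a constant cancel in this measure by arithmetic. Part of the narrowing was thus fixed in advance and shows nothing about the genes. Plin3 lay 0.83 to 1.68 above that median in KO minus WT and 1.94 to 2.37 above it in 4 weeks minus WT. Pemt lay 0.18 to 0.41 above it in KO minus WT, 0.15 to 0.44 in 3 days minus WT and 0.18 to 0.44 in 4 weeks minus WT. Aldh3a2 lay 0.66 to 1.03 above it in 3 days minus WT, while in KO minus WT it ran from -0.13 to 0.32.

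Control spots were also compared among the KO groups. The positive control medians were 7913 and 6653 on the untreated KO arrays and 6634 and 6104 on the 3-day arrays. They were 7003 and 6269 on the 4-week arrays, a range that overlapped both other groups. The spots of 1 RT control, RT3, had medians of 33337 and 38084 on untreated KO arrays and 32200 and 33077 on 3-day arrays. They were 28444 and 27089 on 4-week arrays, so these groups did not overlap in RT3. In RT1 the untreated KO arrays (11200 and 11143) lay between the 3-day arrays (11707 and 10880). The 4-week arrays (10879 and 10204) lay below all of these. In RT2 the 4-week arrays (24183 and 24245) lay between the 3-day arrays (23910 and 24956) and below the untreated KO arrays (27449 and 28946). The 4-week arrays thus lay below the untreated KO arrays without overlap in RT1, RT2 and RT3. Scaling to the RT control spots moved the median 4 weeks minus KO difference of all tested probes from 0.02 to 0.55. Scaling to the positive control spots moved it to 0.46. The Aldh3a2 difference in that contrast was 1.67 with the RT scaling and 1.58 with the positive control scaling. Against KO, Aldh3a2 kept its direction under all 23 alternatives. Its 3 days minus KO difference ran from 0.46 to 0.79 and its 4 weeks minus KO difference from 0.94 to 1.67. Plin3 also stayed above KO, at 0.13 to 1.00 after 3 days and 0.44 to 1.45 after 4 weeks. Pemt ran from -0.08 to 0.08 after 3 days and -0.13 to 0.56 after 4 weeks, with both signs.

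**Figure D4:**
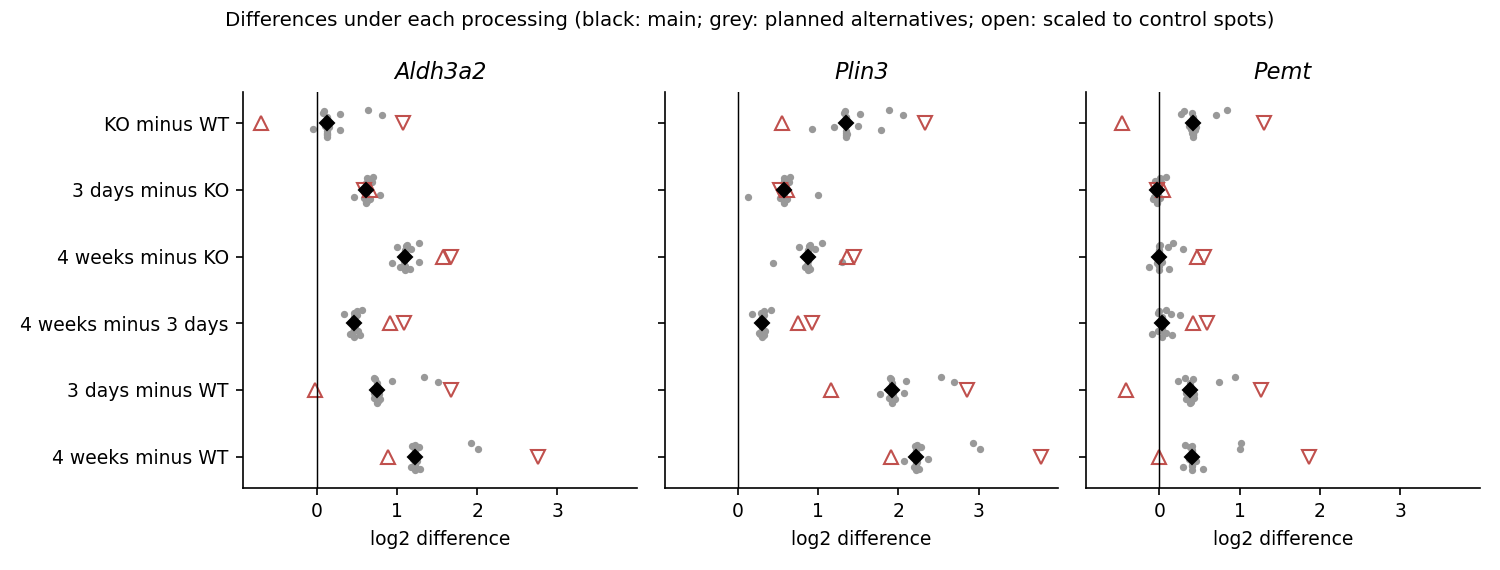
Log2 differences of each gene in the 6 contrasts under the reported setting (black diamond), the other settings for normalization, filter and arrays left out (grey points) and the scalings to positive control spots (upward triangle) or RT control spots (downward triangle). The triangles lie far apart in contrasts with WT (-0.69 and 1.08 for Aldh3a2 in KO minus WT) and close together in 3 days minus KO. In 4 weeks minus KO they lie close together but above the black diamond for each gene (1.58 and 1.67 against 1.10 for Aldh3a2).

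Across the 8 arrays Aldh3a2 and Plin3 were ordered alike, with Pearson's r = 0.86 and Spearman's rho = 0.90 of normalized log2 signal. Plin3 was the named probe most like Aldh3a2 of 162 compared by either measure, and the third with arrays scaled to the same median, after Copz2 and Slc47a1. Of all tested probes, named or not, 1.3% were at least as like Aldh3a2 as Plin3 was by Pearson's r. Seen from Plin3, 4.5% were at least as like it as Aldh3a2 was. These correlations describe 8 arrays in 4 groups that share the group differences and the array brightness, and no test was made of them. Plin3 and Pemt had r = 0.83 but rho = 0.57, and Aldh3a2 and Pemt r = 0.58 and rho = 0.43. With arrays scaled to the same median, r was higher for all 3 pairs (0.93 for Aldh3a2 and Plin3, 0.88 for Plin3 and Pemt, 0.85 for Aldh3a2 and Pemt). The share of tested probes at least as like a gene as its partner did not fall throughout. For Plin3 and Pemt it rose from 5.8% to 10.1% seen from Plin3, and from 4.1% to 19.0% seen from Pemt. For Aldh3a2 and Pemt it went from 15.2% to 11.9% seen from Aldh3a2, and from 20.7% to 25.7% seen from Pemt. For Aldh3a2 and Plin3 it went from 1.3% to 1.7% seen from Aldh3a2, and from 4.5% to 4.0% seen from Plin3.

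Next to Plin3, the named probes most like Aldh3a2 by Pearson's r were Tcte3, a dynein light chain gene (0.85), and Slc47a1, an exporter of organic cations (0.82). Those most like Plin3 were Slc47a1 (0.97), Grap, an adaptor of growth factor signalling (0.97), and Rraga, a GTPase of amino acid sensing (0.90). Grap was 8.15 and 7.94 in WT, 9.94 and 8.48 in KO, 9.56 and 9.74 after 3 days and at least 9.87 on both arrays after 4 weeks. Rraga was 11.01 and 11.05 in WT, 12.35 and 11.05 in KO, 11.95 and 12.15 after 3 days and between 11.95 and 12.18 after 4 weeks. In both, KO replicate 1 lay well above KO replicate 2, as it did for Plin3. Those most like Pemt were Wdfy1 (0.95), Lgals7, a galectin (0.88), and Slc47a1 (0.88). Wdfy1 was 8.95 and 9.40 in WT, 9.95 and 9.91 in KO, 10.03 and 9.91 after 3 days and 10.38 and 9.89 after 4 weeks, so it too was lowest in WT and highest on 4-week replicate 1. Only Wdfy1 for Pemt, and Plin3 for Aldh3a2, and Slc47a1 for Plin3 were among the 3 most alike by Pearson's r, by Spearman's rho and on arrays scaled to the same median.

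Aldh3a2 and Pemt lie on chromosome 11 with 23 protein-coding genes between them in the RefSeq order, and Plin3 lies on chromosome 17. Within 1 Mb of Aldh3a2, 11 probes of neighbouring genes were tested and limma called 0 of them in each of the 6 contrasts, with 0 to 4 at an unadjusted p under 0.05. Of all tested probes, 0% to 5.78% were called and 8.75% to 26.6% had an unadjusted p under 0.05 in these contrasts. Their 4 weeks minus KO differences ran from -1.0 (B9d1) to 0.98 (Akap10) with a median of 0.02, and 0 of 11 lay above Aldh3a2 (1.10). In 4 weeks minus WT the neighbours' median was 0.30, and 4 lay above Aldh3a2, led by Grap at 1.89. Slc47a1, another of these neighbours, was 12.84 and 12.65 in WT, 13.54 and 13.27 in KO, 13.45 and 13.46 after 3 days and 13.83 and 13.66 after 4 weeks. The 3 tested neighbours of Plin3 within 1 Mb, Dpp9, Mydgf and Tnfaip8l1, had 4 weeks minus WT differences of -0.88 to -0.22 against 2.22 for Plin3. Of 14 tested neighbours of Pemt, limma called 0 in each contrast (0 to 5 at an unadjusted p under 0.05), and their median KO minus WT difference was -0.03 against 0.42 for Pemt. Nearly all the arrays' probes carry no name here, and only 15 of 38 protein-coding neighbours of Aldh3a2, 3 of 65 of Plin3 and 15 of 47 of Pemt had a named probe.

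The wider lipid pathways could be seen only in a few probes. Of 545 genes in 10 lists of fatty aldehyde oxidation, lipid droplets, phospholipid synthesis, one-carbon metabolism, fatty acid use and synthesis, cholesterol and bile acids, sphingolipids and carbonyl reduction, 6 had a named probe. Besides the 3 genes these were Aldh3a1 and Aldh3b3, other aldehyde dehydrogenases detected on 0 arrays, and Fgf21, the fasting hormone of the liver. Fgf21 was 12.58 and 9.98 in WT, 5.96 and 6.45 in KO, 6.98 and 5.14 after 3 days and 6.17 and 6.70 after 4 weeks. It was detected on both WT arrays, 3-day replicate 1 and 4-week replicate 2, so it lay lower on all KO arrays, where it was near or below the detection limit. Of these 4 tested list genes, limma called 0 in KO minus WT, 3 days minus KO, 4 weeks minus KO and 4 weeks minus 3 days, with 2, 1, 2 and 0 at an unadjusted p under 0.05. Of all tested probes 1.13%, 0.233%, 0.0478% and 0% were called there, and 19.8%, 16.1%, 8.75% and 8.96% had an unadjusted p under 0.05. It called Plin3 (higher) and Fgf21 (lower) in 3 days minus WT, where 5.78% of all probes were called, and Plin3 and Aldh3a2 (both higher) in 4 weeks minus WT, where 2.27% were. The median difference of the 4 was 0.27 in KO minus WT, 0.27 in 3 days minus KO, 0.55 in 4 weeks minus KO and 0.82 in 4 weeks minus WT, against 0.09, -0.03, 0.02 and 0.09 over all tested probes. Since 3 of the 4 are Aldh3a2, Plin3 and Pemt themselves, these counts and medians follow from how the genes were chosen and say nothing about the pathways.

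Some other genes near these pathways were looked up by name, outside the rule for named genes. Hsd17b10, a mitochondrial dehydrogenase, ran from 14.14 to 14.84 over the 8 arrays and Dhrs7b, a peroxisomal reductase of ether lipid synthesis, from 12.14 to 12.77. Paqr9, a membrane protein of the progestin and adipoQ receptor family, was 15.40 and 14.05 in WT, 13.11 and 12.96 in KO, 11.69 and 13.27 after 3 days and 13.52 and 13.50 after 4 weeks, so both WT arrays lay above all 6 others. Ctdnep1, a nuclear envelope phosphatase that acts on lipin, was 12.07 and 11.76 in WT and 11.29 to 11.69 on the KO arrays. Gpbar1, the bile acid receptor TGR5, was detected on 3 arrays and ran from 5.11 to 7.65 over all 8, and Idi2, Gpr119 and Dgkk passed no filter.

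Markers of the cells that could carry the members' signal were read beside them. Of 18 hepatocyte markers 4 had a named probe, and of 12 cholangiocyte markers 2. No macrophage, lymphocyte, neutrophil, stellate cell, endothelial or adipocyte marker had one, so those cells were not checked. Mup1, an abundant hepatocyte secretory protein, was 19.79 to 20.68 on all 8 arrays, so a marker of the labelled tissue was present on each. The other hepatocyte probes did not hold level: Dio1 was 14.35 and 14.81 in WT, 12.13 and 12.75 in KO and 9.84 to 10.03 on the 4 norUDCA arrays. G6pc was 16.15 and 15.76 in WT, 15.50 and 15.35 in KO and 13.92 to 14.69 on the norUDCA arrays. Hsd3b4 was 15.54 and 15.11 in WT, 14.28 and 11.23 in KO and 5.62 to 8.67 on the norUDCA arrays. The cholangiocyte marker Krt23 was 6.67 and 6.10 in WT, 10.53 and 11.01 in KO, 10.23 and 8.67 after 3 days and 7.76 and 7.29 after 4 weeks. Wfdc2 was 6.88 and 6.93 in WT and 8.78 to 10.40 on the KO arrays, highest after 4 weeks. Aldh3a2 and Plin3 were highest at 4 weeks, where Krt23 was lowest among the KO groups and Wfdc2 highest, and Dio1 and G6pc were lowest on the norUDCA arrays. The part of cell make-up in the members' differences was not tested.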

How the data were processed

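The 8 arrays were grouped by their labels into 4 groups of 2. File names for the 4-week group say 14 days, a disagreement not settled here. The deposited signal is an intensity per spot on a linear scale, per the file headers, with signal over noise as a deposited score and quality flags beside it; the series' table holds the assay-normalized intensity of the authors. The image analysis software is not given in the sources used here.

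The 33012 gene probes were reduced to 28859 by dropping 4153 whose quality flag reached 5000 anywhere. Their log2 signal was quantile-normalized, with no offset. The 16728 probes detected (signal over noise at least 3) on 2 or more arrays were tested with limma 3.58.1 in R 4.3.3 (lmFit and eBayes over all 8 arrays, 4 residual and 1.96 prior degrees of freedom), adjusted by Benjamini-Hochberg within each of 6 contrasts at a threshold of 0.05. The number of arrays limits the precision. Probes were named by RefSeq accession (311 of 317 named probes) or by an older symbol (6), which gave 163 named tested probes of 161 genes. The fit was also run on simulated data with independent noise and changes planted in the untreated KO group. That simulation held no brightness difference between arrays, and no statement here rests on it.

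The genes, the lists and the markers were chosen with earlier results of these data known. The text names the 3 genes, the lipid list genes with a tested probe, the 3 most alike named probes of each gene and the markers; neighbours and other genes named by identity are said to be so. Alternatives were other scalings and filters, an offset of 50, other variance models, a replicate block and leaving out each array. Scaling to positive and to reverse transcription control spots was chosen after seeing the data. Replicate numbers did not pair the arrays, with correlations of -0.04 to 0.03 between same-numbered deviations.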

Additional observations from a re-analysis of the deposited data

Results flagged for a closer look

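The positive control spots, which are no gene probes and serve only to scale the arrays in 1 alternative, separated WT from all other arrays: the lowest median on a KO array was 2.96 times the highest on a WT array, over 129 spots. The reverse transcription control spots and hybridization control spots did not, with the same ratio at 0.786 and 0.977.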

How the results depend on the processing

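Over 23 alternatives Plin3 lay on the same side of 0 in all 6 contrasts, and Aldh3a2 in all but KO minus WT (-0.69 with positive control scaling, -0.04 without KO replicate 1) and 3 days minus WT (-0.02 with positive control scaling). With that scaling Pemt turned to -0.47 in KO minus WT, -0.42 in 3 days minus WT and just under 0.00 in 4 weeks minus WT. In 3 days minus KO Pemt turned to 0.08 with arrays at the same median, 0.01 at the same 75th percentile, 0.01 with cyclic loess, 0.02 with the assay-normalized signal as deposited, 0.05 with positive control scaling, and it ran from -0.08 to 0.01 with 1 array left out. In 4 weeks minus KO, where it was just under 0, it turned to 0.17 (same median), 0.01 (same 75th percentile), 0.11 (assay-normalized, quantile), 0.29 (assay-normalized as deposited), 0.00 (flagged probes kept), 0.47 (positive control) and 0.56 (reverse transcription control), and ran from -0.13 to 0.12 with 1 array left out. In 4 weeks minus 3 days Pemt turned to -0.01 with loess and ran from -0.09 to 0.16 with 1 array left out. The control spot scalings moved the median of all probes too, as given in the report.

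The genes were chosen by these differences, so calls gained or lost at the limma threshold of 0.05 describe settings and are no test of the genes. Calls were gained for Plin3 in KO minus WT with the assay-normalized signal as deposited (2.06), only probes detected on all 8 arrays (1.35), a trended and robust variance (1.35) and reverse transcription control scaling (2.33). They were gained for Aldh3a2 in 4 weeks minus KO by the filter and the variance model (1.10 in both) and in 3 days minus WT by the assay-normalized signal (1.51), the filter and the variance model (0.75 in both) and reverse transcription control scaling (1.67). That scaling also gained Pemt in KO minus WT (1.30), 3 days minus WT (1.27) and 4 weeks minus WT (1.86). Calls against WT were lost with no filter, with the replicate block and with only the groups compared in the fit, at the same differences: 1.92 for Plin3 at 3 days, 2.22 for Plin3 at 4 weeks and 1.23 for Aldh3a2 at 4 weeks. The replicate block changed no other call of the 3 genes; the titles' numbers did not pair the arrays. The Plin3 call at 3 days was also lost with positive control scaling (1.16), and that of Aldh3a2 at 4 weeks with the same 75th percentile (1.22), loess (1.19) and positive control scaling (0.89). With 1 array left out, the differences ran from 1.77 to 2.07, 2.07 to 2.37 and 1.17 to 1.29.

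Of the 4 tested lipid list genes, the 0 called in KO minus WT became 1 (same median, all 8 arrays detected, offset, positive control), 2 (assay-normalized as deposited, variance model) or 3 (reverse transcription control), and 0 to 1 with 1 array left out. The 0 in 4 weeks minus KO became 1 with the filter or the variance model. The 2 in 3 days minus WT became 0 (no filter, block, only the groups compared), 1 (positive control), 3 (assay-normalized as deposited, variance model) or 4 (reverse transcription control), and 0 to 1 with 1 array left out. The 2 in 4 weeks minus WT became 0 (no filter, block, only the groups compared), 1 (75th percentile, loess), 3 (same median, assay-normalized as deposited, both arrays of a group detected, offset, variance model) or 4 (reverse transcription control), and 0 to 3 with 1 array left out. Over the 21 alternatives without control spots the count of probes called among all tested ran from 0 to 1084 in KO minus WT, 0 to 695 in 3 days minus KO, 0 to 139 in 4 weeks minus KO, 0 to 69 in 4 weeks minus 3 days, 0 to 2217 in 3 days minus WT and 0 to 1322 in 4 weeks minus WT. The causes of these changes were not tested. Signal over noise of the 3 genes was 17.6 or more on every array.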
